A study of Mus musculus with 15 samples.

Results

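The 9 genes described here belong to the interleukin-33 (IL-33) and mast cell axis and were followed in colon tissue of 15 mice. They are Il33, its receptor gene Il1rl1 and 7 genes known from mast cells, namely Mcpt1, Mcpt2, Mcpt4, Cpa3, Cma1, Tpsb2 and Fcer1a. These 9 genes, of 55335 in the files, were taken by name. The list itself was chosen by earlier results on the same 15 mice, namely the FPKM values of these genes in the 3 groups. Their values are therefore given as a description, and no statement here rests on how they were chosen.

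RNA sequencing covered 3 groups of 5 mice. DSS_ICB_Fp mice had DSS (dextran sulfate sodium, a polymer that injures the colon lining), immune checkpoint blockade (ICB) and a gavage of F. prausnitzii (Faecalibacterium prausnitzii, a butyrate-making gut bacterium). DSS_ICB mice had DSS and ICB, and DSS mice had DSS alone by their label. Every group, the control included, had therefore been given DSS. The labels name no checkpoint antibody, control antibody, control gavage, dose, time, age, strain or cage, so an effect of the antibodies and one of their injection cannot be told apart, nor can the bacterium and its gavage. Replicates are single mice, numbered 1 to 5 within a group by order of deposit only.

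IL-33 is a cytokine of the interleukin-1 family that sits in the nucleus of barrier, stromal and endothelial cells and is released when they are damaged. Its receptor chain ST2, encoded by Il1rl1, pairs with the shared chain encoded by Il1rap and signals through Myd88. Mast cells, group 2 innate lymphoid cells and many regulatory T cells of the gut carry ST2, and a shorter soluble form made from the same gene binds IL-33 without signalling. Mouse mast cells differ by site. Mucosal mast cells store the chymases encoded by Mcpt1 and Mcpt2, while connective tissue mast cells store those encoded by Mcpt4 and Cma1, the carboxypeptidase encoded by Cpa3 and the tryptase encoded by Tpsb2. Fcer1a encodes the chain of the mast cell and basophil receptor that binds IgE.

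Il33 lies on chromosome 19 (GRCm38, 29925114 to 29960718, plus strand) and Il1rl1 on chromosome 1 (40429570 to 40465415, plus strand). Of the chymase genes on chromosome 14, Cma1 spans 55941451 to 55944675 (minus), Mcpt1 56017971 to 56020384 (plus), Mcpt2 56042041 to 56044642 (plus) and Mcpt4 56059629 to 56062313 (minus). Cpa3 is on chromosome 3 (20215620 to 20242181, minus), Tpsb2 on chromosome 17 (25366305 to 25369098, plus) and Fcer1a on chromosome 1 (173221284 to 173227214, minus). The RefSeq table on GRCm38.p6 held an upstream window for 7 of the 9 genes. The windows printed here are the 250 bases before a transcription start, 5′ to 3′ on the gene's own strand. They are shown for Il1rl1 and Il33 because the 2 starts of each feed a single gene value, and for 4 mast cell genes because their levels part ways in the same tissue. Capitals mark the letters GATAA on either strand (TTATC read on the other), a core bound by GATA factors, or GGGA and CC parted by any 4 bases, a form of the NF-kB motif, on either strand.
Il1rl1, upstream start, chr1:40429320-40429569: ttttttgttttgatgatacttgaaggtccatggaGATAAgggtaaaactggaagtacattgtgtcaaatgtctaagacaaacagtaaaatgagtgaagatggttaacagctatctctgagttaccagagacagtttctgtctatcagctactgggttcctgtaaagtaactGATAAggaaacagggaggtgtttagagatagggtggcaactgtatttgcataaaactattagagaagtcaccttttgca
Il1rl1, downstream start, chr1:40439379-40439628: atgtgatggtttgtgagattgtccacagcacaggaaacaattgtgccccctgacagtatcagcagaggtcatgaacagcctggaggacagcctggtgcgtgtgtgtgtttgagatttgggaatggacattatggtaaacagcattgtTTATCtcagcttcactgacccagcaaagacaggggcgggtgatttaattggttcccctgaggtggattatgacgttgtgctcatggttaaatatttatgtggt
Il33, upstream start, chr19:29924863-29925112: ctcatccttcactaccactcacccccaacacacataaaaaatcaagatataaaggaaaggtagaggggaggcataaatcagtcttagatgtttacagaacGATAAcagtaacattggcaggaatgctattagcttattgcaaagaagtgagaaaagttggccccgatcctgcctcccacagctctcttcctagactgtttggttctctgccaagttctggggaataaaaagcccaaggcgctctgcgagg
Il33, downstream start, chr19:29945540-29945789: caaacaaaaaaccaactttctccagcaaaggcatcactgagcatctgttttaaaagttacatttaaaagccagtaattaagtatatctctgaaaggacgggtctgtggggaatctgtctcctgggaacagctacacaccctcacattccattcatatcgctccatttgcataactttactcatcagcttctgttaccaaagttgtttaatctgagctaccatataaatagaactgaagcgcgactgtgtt
Cpa3, chr3:20242182-20242431 (minus): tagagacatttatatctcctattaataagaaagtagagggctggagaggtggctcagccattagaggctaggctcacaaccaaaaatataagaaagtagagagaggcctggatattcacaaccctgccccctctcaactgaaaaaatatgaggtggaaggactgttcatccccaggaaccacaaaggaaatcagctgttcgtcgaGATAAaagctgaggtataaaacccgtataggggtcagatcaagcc
Mcpt1, chr14:56017714-56017963 (plus): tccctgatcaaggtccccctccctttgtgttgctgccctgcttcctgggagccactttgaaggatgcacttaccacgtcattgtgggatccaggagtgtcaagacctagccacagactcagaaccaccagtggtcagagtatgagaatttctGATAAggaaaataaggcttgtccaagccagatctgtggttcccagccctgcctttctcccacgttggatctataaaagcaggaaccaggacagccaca
Mcpt4, chr14:56062311-56062560 (minus): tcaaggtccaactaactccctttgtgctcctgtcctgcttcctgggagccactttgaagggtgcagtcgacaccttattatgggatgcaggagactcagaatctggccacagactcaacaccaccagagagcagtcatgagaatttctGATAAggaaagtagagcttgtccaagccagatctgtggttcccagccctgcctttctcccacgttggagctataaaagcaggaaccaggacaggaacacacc
Cma1, chr14:55944676-55944925 (minus): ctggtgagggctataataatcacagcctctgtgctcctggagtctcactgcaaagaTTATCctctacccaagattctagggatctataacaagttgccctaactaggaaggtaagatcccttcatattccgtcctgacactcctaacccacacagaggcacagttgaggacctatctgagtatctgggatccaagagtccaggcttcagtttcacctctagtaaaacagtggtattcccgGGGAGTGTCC

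Over all 9 windows of the 7 genes, the Fcer1a window not printed included, 8 held GATAA, the upstream Il1rl1 window at 2 places, and the downstream Il33 window did not. Among all 32526 upstream windows of the same length, 22.5% held it. That form of the NF-kB motif was in 1 of the 9, the Cma1 window, against 17.7% of all windows. TGANTCA, an AP-1 motif, was in 0 of the 9, against 6.73% of all windows, and CANNTG, an E-box, in 6 of the 9 (66.7%), against 66.2%. The Mcpt1 and Mcpt4 windows, from neighbouring paralogs, shared an unbroken run of 53 bases ending in cacgttgga. In mouse and rat the upstream Il1rl1 start is known from blood-derived cells such as mast cells and the downstream start from fibroblasts. The files give 1 value per gene, so the starts, and the membrane and soluble forms, cannot be told apart here.

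Levels are in FPKM, the fragments on a transcript divided by its length and by the mapped fragments of the library, which can be compared between genes as levels per length. A gene was tested when at least 5 of the 15 libraries held 1 FPKM or more, which left 14385 genes. Il33, Il1rl1, Mcpt1, Mcpt2 and Cma1 passed this filter, while Mcpt4, Cpa3, Tpsb2 and Fcer1a did not. A gene was called when its limma adjusted p (Benjamini-Hochberg over all tested genes) was under 0.05. Log2 differences are on the log2(FPKM + 1) scale, which understates the change of low genes. The labels do not say how the mice were housed or processed, so each p measures the spread between these mice only.

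Depth was estimated from the smallest step between values, at 15.2 to 24.62 M (mega) fragments per library. DSS_ICB 3 and DSS_ICB 5 stood apart, with median rank correlations to the other libraries of 0.725 and 0.864, against 0.922 to 0.950 for the other 13. In DSS_ICB 3, mitochondrially encoded genes made up 33.2% of all FPKM, against 9.39 to 25.8% elsewhere (16.8% in DSS_ICB 5). In DSS_ICB 3, 6 smooth muscle genes summed to 14675 FPKM (at most 4665 elsewhere) and 8 epithelial genes to 456 FPKM (at least 2886 elsewhere). The values of the 9 genes and the medians of the tissue lists are given with and without them where they move by much.

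Il33 averaged highest in DSS_ICB mice and lower in DSS_ICB_Fp and DSS mice, but neither difference from DSS_ICB passed in the main fit. Il33 was 1.90, 4.64, 2.06, 9.03 and 3.65 FPKM in DSS_ICB_Fp mice 1 to 5. It was 7.48, 11.7, 33.1, 10.01 and 31.3 FPKM in DSS_ICB mice and 8.36, 6.26, 4.14, 3.99 and 3.37 FPKM in DSS mice. DSS_ICB mice 3 and 5 were about alike and far above the rest, and DSS_ICB overlapped the other groups only through mouse 1. That mouse lay below DSS_ICB_Fp 4 and DSS 1, while the other 4 DSS_ICB mice lay above every mouse of the other groups.

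Il33 averaged 18.7 ± 12.4 FPKM in DSS_ICB mice, against 5.22 ± 2.06 FPKM in DSS mice (SD, n = 5 each), a ratio of means of 3.58. The log2 difference was 1.48 ± 0.42 (SE, limma adjusted p = 0.381), which did not pass. In this comparison 0.0209% of tested genes were called, and 0 of the 9 genes were among them. Without DSS_ICB mice 3 and 5, the DSS_ICB mean was 9.72 ± 2.12 FPKM (SD, n = 3) and the log2 difference was 0.82 ± 0.36 (SE, adjusted p = 0.625).

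With the gavage, Il33 averaged 4.26 ± 2.90 FPKM in DSS_ICB_Fp mice, against 18.7 FPKM in DSS_ICB mice, with a log2 difference of −1.83 ± 0.42 (SE, limma adjusted p = 0.0712). This also did not pass, in a comparison that called 0.132% of tested genes and 0 of the 9. The call depended on the setting. Il33 passed with sample quality weights at −1.53 (adjusted p = 0.0343), without DSS_ICB 1 at −2.07 (0.0309) and without DSS_ICB_Fp 4 at −2.10 (0.0273), and over all the alternatives the adjusted p lay between 0.0273 and 0.216. In the same order, these fits called 964, 598 and 449 of all 14385 tested genes, against 19 in the main fit. DSS_ICB 1 was the lowest DSS_ICB mouse for Il33 (7.48 FPKM) and DSS_ICB_Fp 4 the highest gavaged mouse (9.03 FPKM). Leaving out either of them widens the Il33 difference by construction. Without DSS_ICB 3 and 5 the difference was −1.17 ± 0.36 (SE, adjusted p = 0.191).

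Between DSS_ICB_Fp and DSS mice, whose ranges overlapped over most of their length, the log2 difference of Il33 was −0.34 ± 0.42 (SE, limma adjusted p = 0.9997). That comparison called 0% of tested genes, and 203 of 14385 had an unadjusted p under 0.05. The 3 comparisons share their groups, so each group enters 2 of them.

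Il1rl1, the receptor gene, ranked much as Il33 did over the 15 mice, with exceptions within groups. It was 0.18, 0.22, 0.399, 4.63 and 0.196 FPKM in DSS_ICB_Fp mice 1 to 5. It was 5.56, 7.30, 14.1, 2.95 and 16.8 FPKM in DSS_ICB mice and 2.13, 3.16, 1.35, 0.302 and 1.83 FPKM in DSS mice. In DSS_ICB_Fp mice, 4 of 5 were under 0.4 FPKM, and mouse 4 was above every DSS mouse and above DSS_ICB 4. DSS_ICB mice 3 and 5 were the 2 highest for the receptor gene as for Il33, an order shared by 10.7% of tested genes.

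The receptor gene averaged 9.33 ± 5.86 FPKM in DSS_ICB mice, against 1.75 ± 1.05 FPKM in DSS mice (SD, n = 5 each). Its log2 difference was 1.80 ± 0.49 (SE, limma adjusted p = 0.380), and 1.22 ± 0.51 without DSS_ICB 3 and 5 (adjusted p = 0.625). The groups overlapped only in DSS_ICB 4, which lay below DSS 2. Neither fit called Il1rl1.

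In DSS_ICB_Fp mice Il1rl1 averaged 1.13 ± 1.96 FPKM, or 0.249 ± 0.101 FPKM without mouse 4 (SD, n = 4), against 9.33 FPKM in DSS_ICB mice. The log2 difference from DSS_ICB was −2.41 ± 0.49 (SE, limma adjusted p = 0.0594), the closest to the threshold among the 9 genes in any comparison. It passed with sample quality weights (adjusted p = 0.0271), without DSS_ICB 1 (0.0319), without DSS_ICB 2 (0.0468), without DSS_ICB 4 (0.0228) and without DSS_ICB_Fp 4 (0.0098). In the same order, these fits called 964, 598, 153, 75 and 449 of all 14385 tested genes, against 19 in the main fit. The Il1rl1 passes came in fits that called more genes in all, and the reason was not tested. DSS_ICB 4 was the lowest DSS_ICB mouse for Il1rl1 (2.95 FPKM) and DSS_ICB_Fp 4 the highest gavaged mouse (4.63 FPKM). Leaving out either of them widens the Il1rl1 difference by construction. Without DSS_ICB 3 and 5 it was −1.83 ± 0.51 (SE, adjusted p = 0.186). Against DSS mice it was −0.61 ± 0.49 (SE, adjusted p = 0.9997). The size depends on the pseudocount because 4 gavaged mice were so low, and ran from −0.76 with a pseudocount of 10 to −3.78 with 0.1.

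Across the 15 mice the rank correlation of Il33 and Il1rl1 was 0.87, and 0.71 after each group's mean was subtracted. It was 0.80 over the 13 mice without DSS_ICB 3 and 5. Other genes ranked closer to each over the 15 mice, up to 0.95 for Il33 (Bag5) and 0.97 for Il1rl1 (Ereg). The order was not always shared, as DSS_ICB 4 had more Il33 than DSS_ICB 1 but less Il1rl1. The 15 points share libraries, scaling and tissue make-up, so the figures describe these mice only. DSS_ICB_Fp 4, the gavaged mouse with the highest Il33, also had the highest Il1rl1 of its group, as it was the highest of its group for 28.4% of tested genes.

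**Figure D1:**
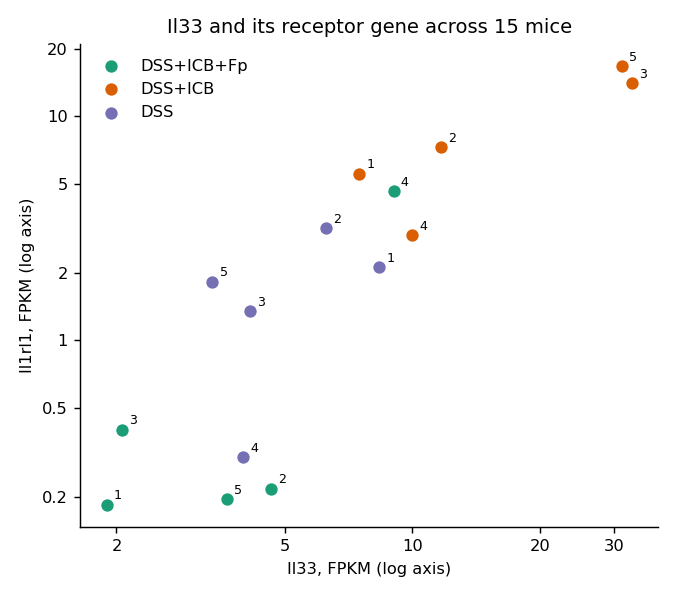
Il33 (x axis) against Il1rl1 (y axis), both in FPKM on log axes, with 1 numbered point per mouse and 1 colour per group. DSS_ICB mice 3 and 5 lie at the top right with Il33 above 30 FPKM, 4 DSS_ICB_Fp mice lie at the bottom left with Il1rl1 under 0.4 FPKM, and DSS_ICB_Fp 4 lies among the DSS_ICB mice.

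The mast cell proteases followed another pattern, in which a single mouse carried most of the difference. Mcpt1, a mucosal mast cell chymase, was 1.95, 3.34, 1.71, 1.68 and 0.382 FPKM in DSS_ICB_Fp mice 1 to 5. It was 2.06, 0.614, 0.699, 2.81 and 16.9 FPKM in DSS_ICB mice and 2.42, 3.83, 1.60, 0.833 and 2.19 FPKM in DSS mice. DSS_ICB 5 was 4.40 times the next highest mouse of the study, and the other 14 mice overlapped across all 3 groups. By the depth estimate this was about 331.5 fragments in DSS_ICB 5, against 6.5 to 70.1 in the others.

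Mcpt2, the other mucosal chymase, was 2.01, 2.22, 1.25, 1.53 and 0 FPKM in DSS_ICB_Fp mice. It was 0.824, 1.76, 0.187, 1.37 and 5.83 FPKM in DSS_ICB mice and 1.48, 2.91, 1.41, 0.691 and 1.16 FPKM in DSS mice. DSS_ICB 5 was again highest, and DSS_ICB_Fp 5, lowest for Mcpt1, was listed at 0. The rank correlation of Mcpt1 and Mcpt2 over the 15 mice was 0.64, and 0.55 over the 14 without DSS_ICB 5.

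Neither mucosal gene differed between groups beyond its spread. The log2 difference of Mcpt1 was 0.24 ± 0.53 in DSS_ICB against DSS (SE, limma adjusted p = 0.866) and −0.43 ± 0.53 in DSS_ICB_Fp against DSS_ICB (0.666). Without DSS_ICB 5 both changed sign, to −0.34 and 0.15. The Mcpt2 differences were 0.03 ± 0.41 (SE, adjusted p = 0.978) and −0.16 ± 0.41 (0.850), and without DSS_ICB 5 they were −0.33 and 0.20. Against DSS mice, DSS_ICB_Fp mice differed by −0.19 for Mcpt1 and −0.13 for Mcpt2 on the log2 scale (adjusted p = 0.9997 each).

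Mcpt4, a connective tissue mast cell chymase, was 0.256, 0.214, 0.096, 0.297 and 0.525 FPKM in DSS_ICB_Fp mice. It was 0.653, 0.24, 0.262, 0.792 and 2.99 FPKM in DSS_ICB mice. Among DSS mice it was 0.573 in mouse 1, 0.235 in mouse 3 and listed at 0 in mice 2, 4 and 5. At about 16.8 to 27.3 fragments per FPKM, all mice but DSS_ICB 5 rested on at most 21.6 fragments.

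Cpa3, the mast cell carboxypeptidase, was 0.461, 0.391, 0.312, 0.27 and 0.485 FPKM in DSS_ICB_Fp mice. It was 0.285, 0.384, 0.114, 0.919 and 3.02 FPKM in DSS_ICB mice and 0.795, 0.627, 0.877, 0.338 and 0.288 FPKM in DSS mice. DSS_ICB 5 was 3.29 times the next highest mouse, DSS_ICB 4. Of the other 14 mice none reached 1 FPKM, and DSS_ICB 3, which had the highest Il33, had the lowest Cpa3.

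Tpsb2, the mast cell tryptase, reached 0.241 FPKM at most in DSS_ICB_Fp mice, 0.731 FPKM in DSS_ICB mice and 0.151 FPKM in DSS mice, and was listed at 0 in 4 of the 15. Fcer1a was 0.182 FPKM or less in every mouse but DSS_ICB 5, where it was 1.27 FPKM, and it was listed at 0 in 7 mice. These are the 2 lowest genes of the 9. With no filter on low values, Mcpt4, Cpa3, Tpsb2 and Fcer1a could be tested too, and none of the 9 genes was called in any comparison. The smallest unadjusted p among these 4 was that of Mcpt4 in DSS_ICB against DSS, 0.0268, with an adjusted p of 0.648.

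Of the 7 mast cell genes, 6 (all but Cma1) were highest in DSS_ICB 5, as were 14.0% of tested genes. Mcpt4, Cpa3, Tpsb2 and Fcer1a were untested, and the share among genes as low as these was not counted. The summed level of the 6 genes was 1.63 to 6.20 FPKM in DSS_ICB_Fp mice (median 3.95). It was 1.39 to 30.7 FPKM in DSS_ICB mice (median 4.002) and 1.86 to 7.57 FPKM in DSS mice (median 4.36). The medians of the 3 groups were thus close, and the 30.7 FPKM came from DSS_ICB 5 alone. DSS_ICB 3, whose Il33 was close to that of DSS_ICB 5, had the lowest sum of the study at 1.39 FPKM. In tissue RNA, fewer mast cells and less RNA per mast cell cannot be told apart.

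**Figure D2:**
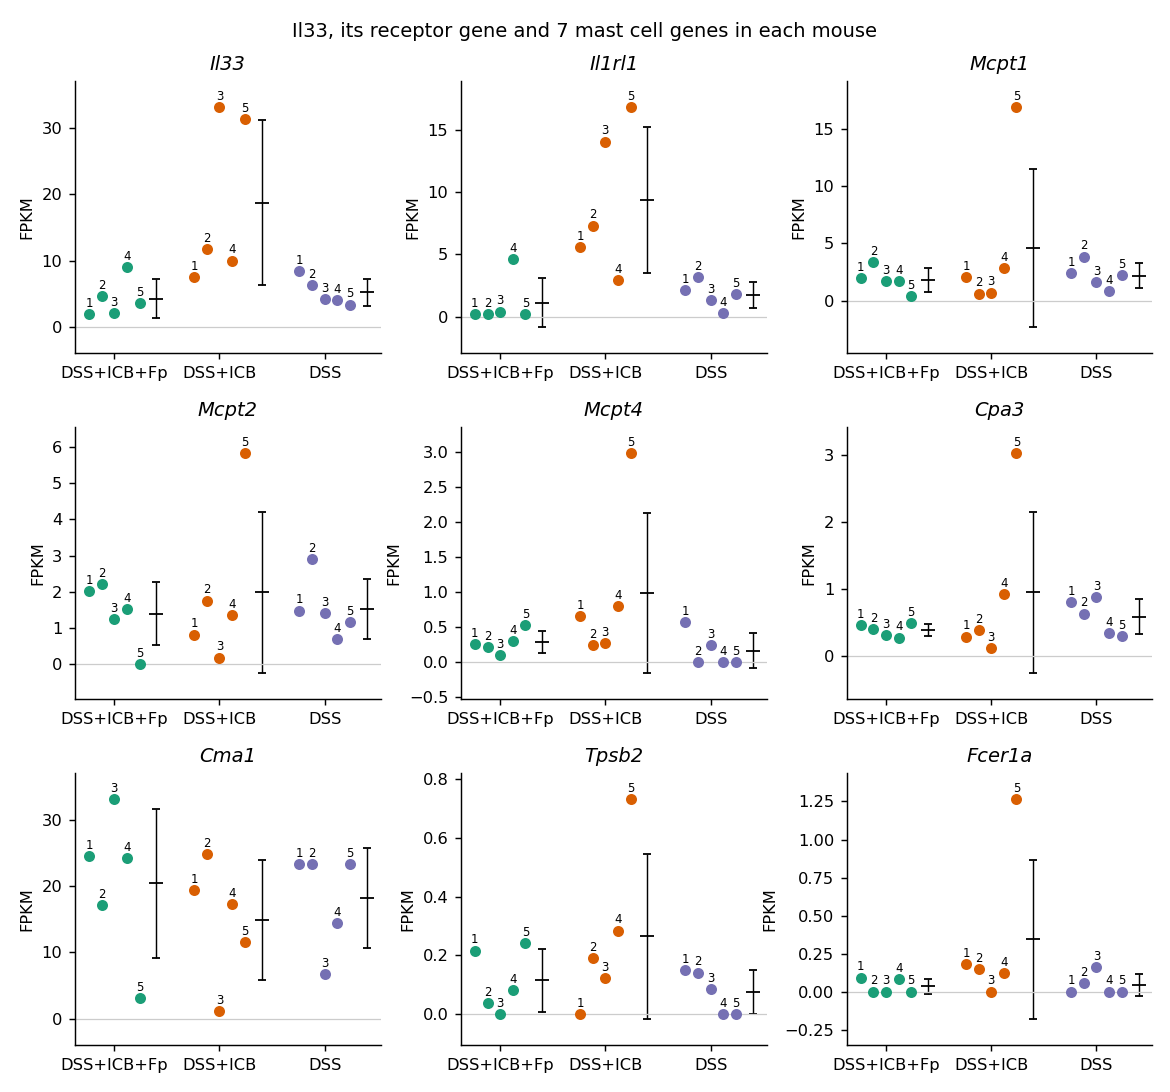
FPKM of the 9 genes (y axis, its own linear scale in each panel) in each mouse (numbered points), by group (x axis), with the group mean and SD as a black bar. Il33 and Il1rl1 are raised in several DSS_ICB mice, the proteases other than Cma1 and the IgE receptor gene stand out in DSS_ICB 5 only, and Cma1 dips in DSS_ICB 3, DSS_ICB_Fp 5 and DSS 3.

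Cma1, the chymase also known as mouse mast cell protease 5, was far more abundant than the other 6 mast cell genes and was not highest in DSS_ICB 5. It was 24.6, 17.2, 33.2, 24.3 and 3.04 FPKM in DSS_ICB_Fp mice. It was 19.5, 24.9, 1.07, 17.4 and 11.5 FPKM in DSS_ICB mice and 23.3, 23.4, 6.73, 14.4 and 23.4 FPKM in DSS mice. Its median level over all mice, 19.5 FPKM, stood beside 0.391 FPKM for Cpa3 and 0.256 FPKM for Mcpt4, the genes stored with it in connective tissue mast cells. The rank correlation of Cma1 with Cpa3 was −0.23 over the 15 mice, with Mcpt4 −0.28 and with Tpsb2 −0.21, and it was 0.35 with Mcpt2, 0.11 with Mcpt1 and 0.04 with Fcer1a. Cpa3 and Tpsb2 had 0.69.

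No difference in Cma1 passed. It averaged 14.9 ± 9.08 FPKM in DSS_ICB mice, against 18.3 ± 7.53 FPKM in DSS mice (SD, n = 5 each), a log2 difference of −0.55 ± 0.68 (SE, limma adjusted p = 0.742). It averaged 20.5 ± 11.3 FPKM in DSS_ICB_Fp mice, a log2 difference of 0.54 ± 0.68 from DSS_ICB (adjusted p = 0.669) and of −0.02 ± 0.68 from DSS (adjusted p = 0.9997). The first 2 turned on DSS_ICB 3, without which they were 0.08 and −0.10.

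The lowest Cma1 levels were in DSS_ICB 3, DSS_ICB_Fp 5 and DSS 3, where the other 6 mast cell genes summed to 1.39, 1.63 and 4.36 FPKM, the first 2 being the lowest sums of the study. DSS_ICB 3 was also lowest for 36.6% of tested genes, and there Epcam, an epithelial adhesion gene, was 83.0 FPKM. In DSS_ICB_Fp 5 and DSS 3, Epcam was 570 and 621 FPKM, within the range of the other mice. After the values were seen, the genes with the most similar ranking were also listed for Cma1. They were Ap1m2 (an epithelial adaptor subunit, rho 0.94), Atp5f1, Txn1, Tmem183a and Sdhd over the 15 mice, and Pmpcb, Nox1 (the colon epithelial NADPH oxidase, rho 0.94), Orc1, Chac2 and Vsig1 once group means were subtracted. Nox1 was 9.98 FPKM in DSS_ICB_Fp 5, 0.0886 FPKM in DSS_ICB 3 and 10.4 FPKM in DSS 3, and 16.8 FPKM or more in every other mouse except DSS_ICB 2 (11.7) and DSS_ICB 5 (2.79). The part of epithelial content in the Cma1 values was not tested.

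Of the 50-base stretches of Cma1 transcripts, 5.38% also occur in the predicted gene Gm48934, and 5.48% of those of Mcpt4 occur in Cma2. Values of these 2 genes are less certain for that reason. Mcpt1, Mcpt2, Cpa3, Tpsb2, Fcer1a and Il33 shared none with another gene, and Il1rl1 0.0438%. The microRNA gene Mir7007 lies within Cpa3 on the same strand. Gm48934 itself was listed at 0 in every mouse, and Cma2 reached 0.25 FPKM at most.

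**Figure D3:**
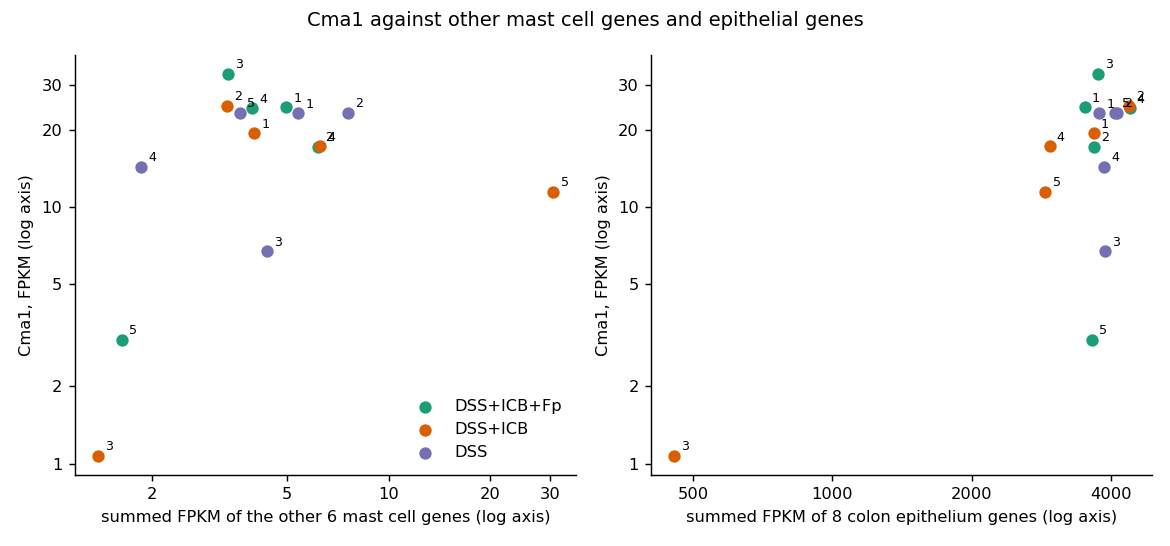
Cma1 in FPKM (y axis, log) against the summed FPKM of the other 6 mast cell genes (left) and of 8 colon epithelium genes (right), both x axes log, with 1 numbered point per mouse and 1 colour per group. DSS_ICB 5 stands alone at the right of the left panel at 30.7 FPKM with Cma1 at 11.5 FPKM, and DSS_ICB_Fp 5 and DSS 3 have low Cma1 at an epithelial sum like that of other mice.

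The label of the 9 genes was set against 19 further mast cell genes. Tpsab1, a tryptase, was listed at 0 in every mouse, Ms4a2, the beta chain of the IgE receptor, was at most 0.26 FPKM (DSS_ICB 5), and Mrgprb2, a mast cell receptor for basic peptides, at most 0.11 FPKM. Kit, the stem cell factor receptor that colonic pacemaker cells also carry, was 1.96 to 6.10 FPKM and not highest in DSS_ICB 5. Of the 19 genes, 10 were tested and 0 passed in any comparison, with a median log2 difference of 0.09 in DSS_ICB against DSS, where all tested genes had 0.02. In DSS_ICB_Fp against DSS_ICB the median was −0.14, beside −0.04 for all tested genes, with 4 of the 10 genes above 0 and 6 below. In DSS_ICB_Fp against DSS the median was 0.01, beside −0.01.

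The most abundant of these genes are ones that many leukocytes express. Srgn, the core protein of granule proteoglycans, had a log2 difference of 1.53 ± 0.43 in DSS_ICB against DSS (SE, limma adjusted p = 0.381), −2.04 ± 0.43 in DSS_ICB_Fp against DSS_ICB (0.0695) and −0.52 ± 0.43 in DSS_ICB_Fp against DSS (0.9997). Fcer1g, the signalling chain of Fc receptors, had 1.004 ± 0.27 (0.375), −1.25 ± 0.27 (0.0712) and −0.24 ± 0.27 (0.9997). Tpsg1, a tryptase gene, had 0.45 ± 0.38 in DSS_ICB_Fp against DSS (0.9997). Unlike Srgn and Fcer1g, Tpsg1 was lowest on average in DSS_ICB mice. It averaged 8.24 FPKM in DSS_ICB_Fp, 4.23 FPKM in DSS_ICB (5.92 FPKM without mice 3 and 5) and 5.86 FPKM in DSS mice. Hdc, the histamine-forming enzyme of mast cells and of some neutrophils, was not tested and was 0.04 to 0.42 FPKM in DSS_ICB_Fp mice, 0.75 to 18.6 FPKM in DSS_ICB mice and 0.16 to 0.67 FPKM in DSS mice. It was highest in DSS_ICB 3, where the 6 mast cell genes other than Cma1 had their lowest sum. Of the same 19 genes, Gata2 (1.11 FPKM), Slc18a2 (1.83 FPKM) and Il3ra (4.16 FPKM) were also highest there, as were 17.5% of tested genes. Ms4a2, Fcer1g, Cma2, Hpgds, Ltc4s and Srgn were highest in DSS_ICB 5, as were 14.0% of tested genes, and the rest elsewhere or at 0. Gata2, Ms4a2 and Cma2 were untested. The source of the Hdc values was not tested.

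Neutrophil genes were highest in DSS_ICB 3 too. The 6 neutrophil genes summed to 1.46 to 32.5 FPKM in DSS_ICB_Fp mice, 126 to 2011 FPKM in DSS_ICB mice and 20.2 to 57.0 FPKM in DSS mice, with 2011 FPKM in DSS_ICB 3 and 32.5 FPKM in DSS_ICB_Fp 4. In DSS_ICB_Fp against DSS_ICB all 6 lay below 0 and 5 passed, where 0.132% of all tested genes were called, led by S100a8 at −5.85 ± 0.75 (SE, limma adjusted p = 0.0061) and S100a9 at −6.10 ± 0.81 (0.00702), which encode calprotectin, and 5 also passed without DSS_ICB 3 and 5. None passed in DSS_ICB against DSS (S100a8 3.47 ± 0.75, adjusted p = 0.247, and S100a9 3.66 ± 0.81, 0.254) or in DSS_ICB_Fp against DSS (−2.38 and −2.44, 0.9997 each). Basophil genes were near 0 throughout, with Mcpt8, Prss34 and Cd200r3 summing to at most 0.347 FPKM.

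**Figure D4:**
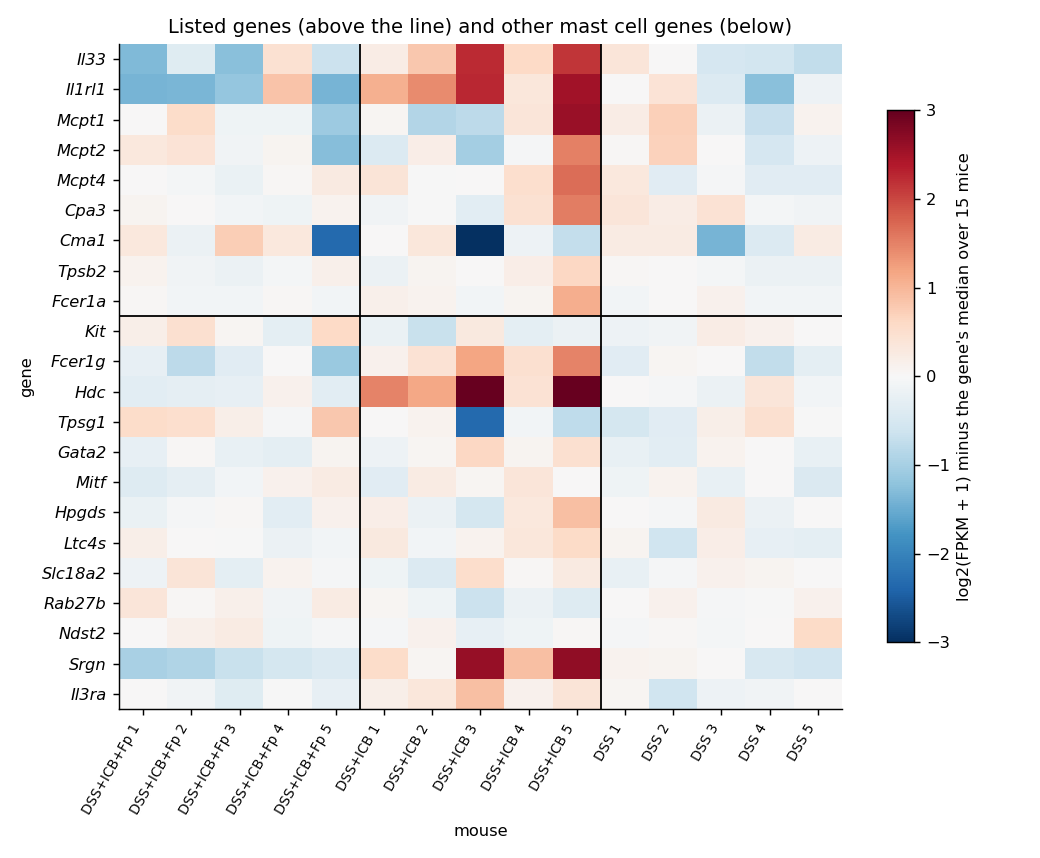
The 9 genes (above the line) and those other mast cell genes that reached 1 FPKM in any mouse (below), in rows, by mouse in columns; colour gives log2(FPKM + 1) minus the gene's median over the 15 mice. Mcpt1, Mcpt2, Mcpt4 and Cpa3 are reddest in DSS_ICB 5 and pale or blue in DSS_ICB 3, while Il33, Il1rl1, Hdc and Srgn are red in DSS_ICB 3 as well.

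The 11 genes of IL-33 receptor signalling, the co-receptor gene Il1rap included, were all tested and 0 passed in any comparison. Their median log2 difference was −0.003 in DSS_ICB against DSS, −0.11 in DSS_ICB_Fp against DSS_ICB and −0.03 in DSS_ICB_Fp against DSS, beside 0.02, −0.04 and −0.01 for all tested genes. Myd88, the adaptor, had 0.50 ± 0.18 (SE, limma adjusted p = 0.426), −0.59 ± 0.18 (0.108) and −0.09 ± 0.18 (0.9997) in the same order. Irak1, a kinase of the pathway, had −0.45 ± 0.12 in DSS_ICB_Fp against DSS_ICB (0.0851) and Rela, an NF-kB subunit, −0.26 ± 0.20 (0.457). Il1rap, the co-receptor, was 0.95 to 1.17 FPKM in DSS_ICB_Fp mice, 1.07 to 2.94 FPKM in DSS_ICB mice and 1.004 to 1.35 FPKM in DSS mice.

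The cytokines around IL-33 were mostly at or near 0. Il3 and Il9, growth factors of mast cells, were listed at 0 in every mouse, and Il13, Il5 and Il25 reached 0.18 FPKM at most. Il4 reached 0.77 FPKM in DSS_ICB 5. Of the 12 genes of this list, Il18, Areg, Tgfb1 and Kitl were tested and 0 passed, with medians of 0.27, −0.36 and −0.09 in the 3 comparisons. Areg, an epidermal growth factor family member, had −1.20 ± 0.48 in DSS_ICB_Fp against DSS_ICB (SE, limma adjusted p = 0.172), Tgfb1 −0.76 ± 0.25 (0.122) and Il18, an epithelial alarmin, 0.97 ± 0.58 (0.333). The Il18 difference rested on DSS_ICB 3 and 5, at 6.34 and 22.7 FPKM. Without them the DSS_ICB mean of Il18 was 92.0 ± 11.4 FPKM, beside 84.0 ± 19.8 FPKM in DSS_ICB_Fp mice (SD). Kitl, the stem cell factor, was 15.4 to 25.8 FPKM over all mice.

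Markers of the other cells that carry ST2 were counted in the same way. Of 10 genes of group 2 innate lymphoid and T helper 2 cells, Crlf2 and Il7r were tested and neither passed, with log2 differences of 0.58 and 0.09 in DSS_ICB against DSS and −0.54 and −0.45 in DSS_ICB_Fp against DSS_ICB. Gata3, their defining factor, was at most 0.59 FPKM. Arg1, an arginase that myeloid cells also express, was untested and was 0.105 to 0.646 FPKM in DSS_ICB_Fp mice, 0.561 to 13.2 FPKM in DSS_ICB mice and 0.208 to 0.518 FPKM in DSS mice, highest in DSS_ICB 5. Of 6 regulatory T cell genes, Ikzf2 and Tnfrsf18 were tested and neither passed (0.34 and −0.25 in DSS_ICB_Fp against DSS_ICB). Foxp3, Ctla4 and Il2ra were untested and were highest in DSS_ICB 5, at 1.19, 4.66 and 1.46 FPKM. Tnfrsf18 and Tnfrsf4 (untested) were highest there too, as were 14.0% of tested genes, a share not counted for untested genes. Ikzf2 was highest in DSS_ICB_Fp 1, at 2.34 FPKM, and was 1.11 FPKM in DSS_ICB 5. The eosinophil genes tested, Ear2 and Alox15, did not pass (−0.37 and −0.13 in DSS_ICB against DSS), and Epx was listed at 0 throughout. Il5ra, the interleukin-5 receptor chain, was untested and was 0 to 0.903 FPKM in DSS_ICB_Fp mice, 0.684 to 5.26 FPKM in DSS_ICB mice and 0.27 to 0.956 FPKM in DSS mice. Of the eosinophil list, Il5ra, Ccr3 (2.07 FPKM), Siglecf (1.1 FPKM), Alox15 and Ear6 were highest in DSS_ICB 5, as were 14.0% of tested genes. Of these only Alox15 was tested. Prg2 was highest in DSS_ICB_Fp 3 (0.569 FPKM), Ear2 in DSS 3 (4.16 FPKM) and Ear1 in DSS_ICB 4 (0.111 FPKM).

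Genes of fibroblasts and endothelium, among the cells known to make IL-33, were set beside Il33. All 7 fibroblast genes lay below 0 in DSS_ICB_Fp against DSS_ICB, with a median log2 difference of −0.96 (all tested genes −0.04), and 6 of 7 above 0 in DSS_ICB against DSS, with a median of 0.65 (0.02). None passed. Pdpn, podoplanin, had −1.53 ± 0.30 (SE, limma adjusted p = 0.0515) and 1.28 ± 0.30 (0.314) in these comparisons, Col3a1 −1.12 ± 0.21 (0.0515) and 0.75 ± 0.21 (0.381), and Dcn −0.59 ± 0.24 (0.174) and 0.36 ± 0.24 (0.536). The 6 tested endothelial genes had medians of −0.74 and 0.69 and none passed, with Esam at −0.79 ± 0.21 (0.0870) and 0.85 ± 0.21 (0.348). Without DSS_ICB 3 and 5, the fibroblast medians were −0.60 and 0.25 and the endothelial medians −0.42 and 0.36. The fibroblast sum was 216 to 402 FPKM in DSS_ICB_Fp mice, 386 to 727 FPKM in DSS_ICB mice and 271 to 397 FPKM in DSS mice. The 8 epithelial genes, of the barrier cells, went the other way. Their medians were 0.79 in DSS_ICB_Fp against DSS_ICB and −0.76 in DSS_ICB against DSS, or 0.16 and −0.03 without DSS_ICB 3 and 5. The part of stromal or epithelial content in the Il33 values was not tested.

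No gene of the epithelial, smooth muscle or enteric nerve and glia lists passed either. In DSS_ICB against DSS, the medians were −0.76 for 8 epithelial genes (Slc26a3 −2.24, Krt8 −0.93), 0.24 for 6 smooth muscle genes (Tagln 0.20) and 0.15 for 5 genes of enteric nerve and glia (Sox10 0.37). In DSS_ICB_Fp against DSS_ICB they were 0.79, −0.34 and −0.10. Without DSS_ICB 3 and 5, the medians of the same lists were −0.03, −0.62 and −0.35 in DSS_ICB against DSS and 0.16, 0.52 and 0.37 in DSS_ICB_Fp against DSS_ICB, so the muscle and nerve medians turned in both. Among genes that receive or break down mast cell mediators, Aoc1, which degrades histamine, had −1.43 ± 0.58 in DSS_ICB against DSS (SE, limma adjusted p = 0.430) and 1.63 ± 0.58 in DSS_ICB_Fp against DSS_ICB (0.141), and F2rl1, a receptor cut by tryptase, −0.58 and 0.60. In DSS_ICB 3 they were 3.41 and 4.51 FPKM. Without DSS_ICB 3 and 5, the DSS_ICB mean of F2rl1 was 37.8 FPKM, beside 37.9 FPKM in DSS and 38.5 FPKM in DSS_ICB_Fp mice. The DSS_ICB mean of Aoc1 went from 36.9 to 54.9 FPKM, beside 67.1 FPKM in DSS and 77.9 FPKM in DSS_ICB_Fp mice. Cysltr1 went the other way, at 0.826 FPKM on average in DSS_ICB_Fp, 1.49 FPKM in DSS_ICB (1.25 FPKM without mice 3 and 5) and 1.14 FPKM in DSS mice. Hrh1 averaged 1.40, 0.856 and 1.09 FPKM in the same order. Of the 5 tested genes of that list, 2 lay above 0 and 3 below in DSS_ICB against DSS. None of the 5 passed, and in DSS_ICB_Fp against DSS no gene of any list did.

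The genes ranked most like each of 5 members over the 15 mice were taken from 12444 named genes. For Il33 they were Bag5 (rho 0.95), Efemp2, an elastic fibre protein (0.94), Cdc42ep2 (0.94), Selp, the endothelial P-selectin (0.94), and Nradd (0.94). With group means subtracted they were Ccl11, the eosinophil chemokine eotaxin (0.94), Gng10, Mir6991, Fam220a and Nnmt. Ccl11 was 2.62 to 10.4 FPKM in DSS_ICB_Fp mice, 4.61 to 39.5 FPKM in DSS_ICB mice and 3.15 to 7.29 FPKM in DSS mice, highest in DSS_ICB 3 and in DSS_ICB_Fp 4 of their groups, as was Il33. For Il1rl1 they were Ereg, epiregulin (0.97), Clec4d, a myeloid lectin (0.97), Samd5, Tpm4 and Krt90, and with group means subtracted Tpm4, Acsl4, Lpcat4, Ereg and Samd5.

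None of the genes named for Il33 and Il1rl1 was on the mast cell lists used here, and Clec4d is one of the 6 genes of the neutrophil list. For Cpa3 the most alike were Dennd1c (0.94), Ighv1-7, Igkv4-50, Lat2, an adaptor of mast cells and B cells, and Ighv1-19, and with group means subtracted Timd4 (0.95), Il7r, Il4i1, Pld4 and Lat2. Il7r is on the lymphoid list. For Mcpt4 they were Uxs1, Tnfaip2, Chsy1, Ccnj and Lonrf1, and then Csf1r, the macrophage growth factor receptor (0.90), Pld4, Smap2, Atp6ap1 and Cerk. For Mcpt1 they were Npl (0.86), Zc3h11a, Rassf4, Snap23 and Tada1, and then Zc3h11a, Cd300c2, Rassf4, Nepro and Msr1. These correlations, each over 15 libraries that share scaling and tissue make-up, are descriptions and carry no test.

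**Figure D5:**
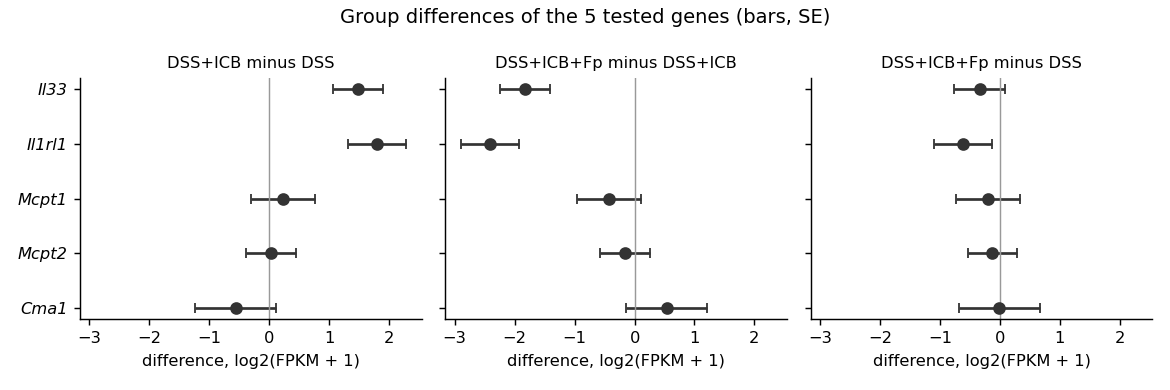
Log2 differences between groups (x axis, log2(FPKM + 1), points with SE bars) of the 5 tested genes (y axis) in the 3 comparisons. Il33 and Il1rl1 lie at 1.48 and 1.80 in DSS_ICB minus DSS and at −1.83 and −2.41 in DSS_ICB_Fp minus DSS_ICB, and Mcpt1, Mcpt2 and Cma1 lie within 0.6 of 0 in all 3.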

How the data were processed

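RNA from colon tissue of 15 mice was sequenced, 5 per group. Per the submitters' processing notes, reads were checked with FastQC, aligned with STAR 2.5 to mm10 and summarised with Cuffnorm, and DESeq is listed with no role. Each mouse has 1 file of FPKM computed by the authors; whether they were scaled further between libraries is not given in the sources used here, and totals were 341054 to 443338 FPKM per library. Gene IDs were matched to GENCODE M21 symbols (55154 of 55335). Depth was estimated from single-transcript genes of 1000 to 6000 bases and covers counting error only where used; it holds only if no further scaling was applied.

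Values were analysed as log2(FPKM + 1) in limma 3.58.1 (R 4.3.3) with a trend and robust fitting, 1 mean per group over all 15 libraries, two-sided, for genes of at least 1 FPKM in at least 5 libraries. The procedure was tested on simulated data. The 9 genes, the 14 companion lists and the alternatives were chosen with earlier results of these data known. The text names the 9 genes, list members with the largest mean or smallest p, and the 5 genes ranked most alike to Il33, Il1rl1, Cpa3, Mcpt1 and Mcpt4 by Spearman correlation; genes alike to Cma1, and list members given for their level (Hdc, Kit, Tpsab1, Ms4a2, Mrgprb2, Il1rap, the cytokines, Gata3, Foxp3, Ctla4, Il2ra, Arg1, Il5ra, Ccr3, Siglecf, Epx, Epcam) or near-copies, were named after their values were seen. Prg2, Ear1, Ear6, Tnfrsf4, Gata2, Slc18a2, Il3ra, Hpgds and Ltc4s were likewise named after their values were seen. Alternatives were other scalings, other pseudocounts (0.1, 10) and filters (none, 5 FPKM), fits of 2 groups, sample quality weights, and leaving out mice.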

Additional observations from a re-analysis of the deposited data

Results flagged for a closer look

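In 3 of the 27 groups of 5 values (9 genes in 3 groups), 1 mouse stood apart from the other 4 by Dixon's criterion on the log2(FPKM + 1) scale; chance gives about 1 in 20. Il1rl1 was 4.63 FPKM in DSS_ICB_Fp 4, where the other 4 gavaged mice had 0.18 to 0.399 FPKM. Cma1 was 1.07 FPKM in DSS_ICB 3, where the next lowest DSS_ICB mouse had 11.5 FPKM. Fcer1a was 1.27 FPKM in DSS_ICB 5, where the next highest DSS_ICB mouse had 0.182 FPKM. In DSS_ICB_Fp 4 the neutrophil genes summed to 32.5 FPKM, against 1.46 to 9.24 FPKM in the other gavaged mice; their part in the Il1rl1 value was not tested.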

How the results depend on the processing

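Il33 and Il1rl1 kept their direction in all 3 comparisons under every alternative run. Leaving out 1 mouse at a time, the log2 difference of Il33 ranged from 1.23 to 1.73 in DSS_ICB against DSS, from −2.10 to −1.57 in DSS_ICB_Fp against DSS_ICB and from −0.61 to −0.17 in DSS_ICB_Fp against DSS. The number of the 9 genes called stayed at 0 in both comparisons with DSS. In DSS_ICB_Fp against DSS_ICB it ranged from 0 to 2 with a mouse left out and was 2 with sample quality weights (Il33 −1.53), where 964 genes were called in all; without DSS_ICB 1, 598 genes were called, and without DSS_ICB_Fp 4, 449, against 19. The cause was not tested. The fit of the 2 groups alone called 0 genes (Il33 adjusted p = 0.216), and all tested genes called ranged from 0 to 7 in DSS_ICB against DSS and stayed at 0 in DSS_ICB_Fp against DSS.

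The small differences of the other 3 genes changed sign under some settings, and none was called. In DSS_ICB against DSS, Cma1 was 0.0096 with quality weights and 0.27 without DSS_ICB 3 and 5, Mcpt2 was −0.0031 with median-of-ratios scaling, −0.0042 with upper-quartile scaling, −0.15 with a pseudocount of 0.1 and −0.092 without DSS_ICB 3 and 5, and Mcpt1 was −0.18 without them. In DSS_ICB_Fp against DSS_ICB, Cma1 was −0.0797 with quality weights and −0.29 without DSS_ICB 3 and 5. In DSS_ICB_Fp against DSS, Cma1 was 0.0063 with median-of-ratios scaling and 0.0526 with a pseudocount of 10. Leaving out 1 mouse, Cma1 ranged from −0.85 to 0.0796, from −0.10 to 1.07 and from −0.31 to 0.51 in the 3 comparisons, Mcpt2 from −0.33 to 0.30, from −0.43 to 0.20 and from −0.26 to 0.16, and Mcpt1 from −0.34 to 0.52, from −0.72 to 0.15 and from −0.37 to 0.0406. A filter at 5 FPKM left Il33 and Cma1 only. No paired analysis was possible because the mouse numbers follow the order of deposit and the labels match no mice between groups. Mcpt4, Cpa3, Tpsb2 and Fcer1a lay under the filter on low values.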
